A study of Mus musculus with 8 samples.

Results

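Synaptic vesicles and the proteins that release their contents were described by the transcripts of 43 genes among the 48709 genes counted in each library of P1 mouse cortex. The 43 genes were chosen by name, with earlier results of these data known, and no cut on their values was applied. They code for synaptotagmins, SNAREs and complexins, synapsins and other vesicle membrane proteins, active zone proteins, neurexins and vesicular glutamate transporters. All 43 were found by Ensembl identifier, and all 43 passed the filter on low counts, with at least 20 counts in every library. The study compared 4 control with 4 dcKO_Nex-Cre samples, in which BAF155 and BAF170, the scaffolding subunits of the chromatin remodeling BAF complex, are deleted in principal neurons of the cortex. Control animals were heterozygous for both floxed genes (BAF155fl/+, BAF170fl/+) and carried no Cre, while dcKO_Nex-Cre animals carried the floxed genes together with Nex-Cre, and all were on a C57BL6/J background. The Nex-Cre line acts in postmitotic principal neurons, so that interneurons, glia and vessels in the same tissue keep both genes. Loss of the BAF subunits and presence of the Nex-Cre allele cannot be told apart here, since no control carried Cre.

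At a chemical synapse, vesicles are filled with transmitter, tethered at the active zone, primed by Munc13 proteins and fused with the plasma membrane by SNARE proteins. Synaptotagmins sense the calcium that enters the terminal, and complexins hold and then promote the assembled SNARE complex. In the newborn mouse cortex few synapses have formed, yet neurons already transcribe most of these genes, and the vesicular glutamate transporter VGLUT2 precedes VGLUT1 in many cortical circuits.

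Total counts ranged from 17958641 to 35191912 per library, and expression is given as CPM, counts scaled to the TMM-normalized library size. *Smarcc2*, the gene of BAF170, averaged 462 ± 25.8 CPM in controls and 263 ± 26.0 CPM in dcKO_Nex-Cre samples (SD, n = 4 each), with no overlap (log2 fold change or log2FC -0.81, standard error or SE 0.09, adjusted p = 0.00267 with edgeR). *Smarcc1*, the gene of BAF155, went from 148 ± 11.6 to 102 ± 13.7 CPM (SD, n = 4 each), with a log2FC of -0.53 and an adjusted p of 0.0348 that stayed under 0.05 in 2 of the 8 fits that leave out 1 library. *Neurod6*, the gene that holds the Nex-Cre allele, was at 645 ± 84.4 and 387 ± 48.0 CPM (SD, n = 4 each; adjusted p = 0.0192), a call that held in 3 of these 8 fits (adjusted p-values of 0.00492 to 0.0954). Control replicate 2 and dcKO_Nex-Cre replicate 4 stood apart from the other libraries in mitochondrial share and at 1 end of the first principal component. Mitochondrial genes took 6.87% and 6.15% of their counts against 2.33% to 4.24% elsewhere, and on the first principal component they lay at -35.1 and -25.9 against -4.4 to 31.8. The value of 31.8, at the other end, was that of dcKO_Nex-Cre replicate 1. The interquartile range of log2 CPM around the gene medians was 0.343 in dcKO_Nex-Cre replicate 1. It was 0.349 in control replicate 2, 0.348 in dcKO_Nex-Cre replicate 4 and 0.138 to 0.224 in the remaining libraries. Nothing in the labels says whether replicates are separate animals, so p-values measure the spread between these samples. In whole tissue, fewer cells of a type and less RNA per cell cannot be told apart.

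Of the 43 genes, 1 fell at an adjusted p under 0.05, *Sv2b*, and 0 rose; over all genes tested, 0.510% fell and 0.375% rose at the same threshold. At an unadjusted p under 0.05, 9 of the 43 (20.9%) were lower in the dcKO_Nex-Cre cortex and 1 (2.33%), *Rims2*, was higher, against 7.05% lower and 6.59% higher over all genes. The 9 lower genes were *Sv2b*, *Snap25*, *Unc13c*, *Synpr*, *Stx1a*, *Syt2*, *Syt17*, *Slc17a7* and *Vamp1*. The groups did not overlap in 7 genes, 5 lower and 2 higher in the mutant, where 4.01% and 3.99% of all genes were apart in these directions. The log2FC was below 0 for 27 genes and above 0 for 16, with a median of -0.07 against 0.0043 over all genes tested. The other 33 genes had log2FC values between -0.30 and 0.44, standard errors of 0.07 to 0.24 and adjusted p-values of 0.38 to 0.979.

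**Figure D1:**
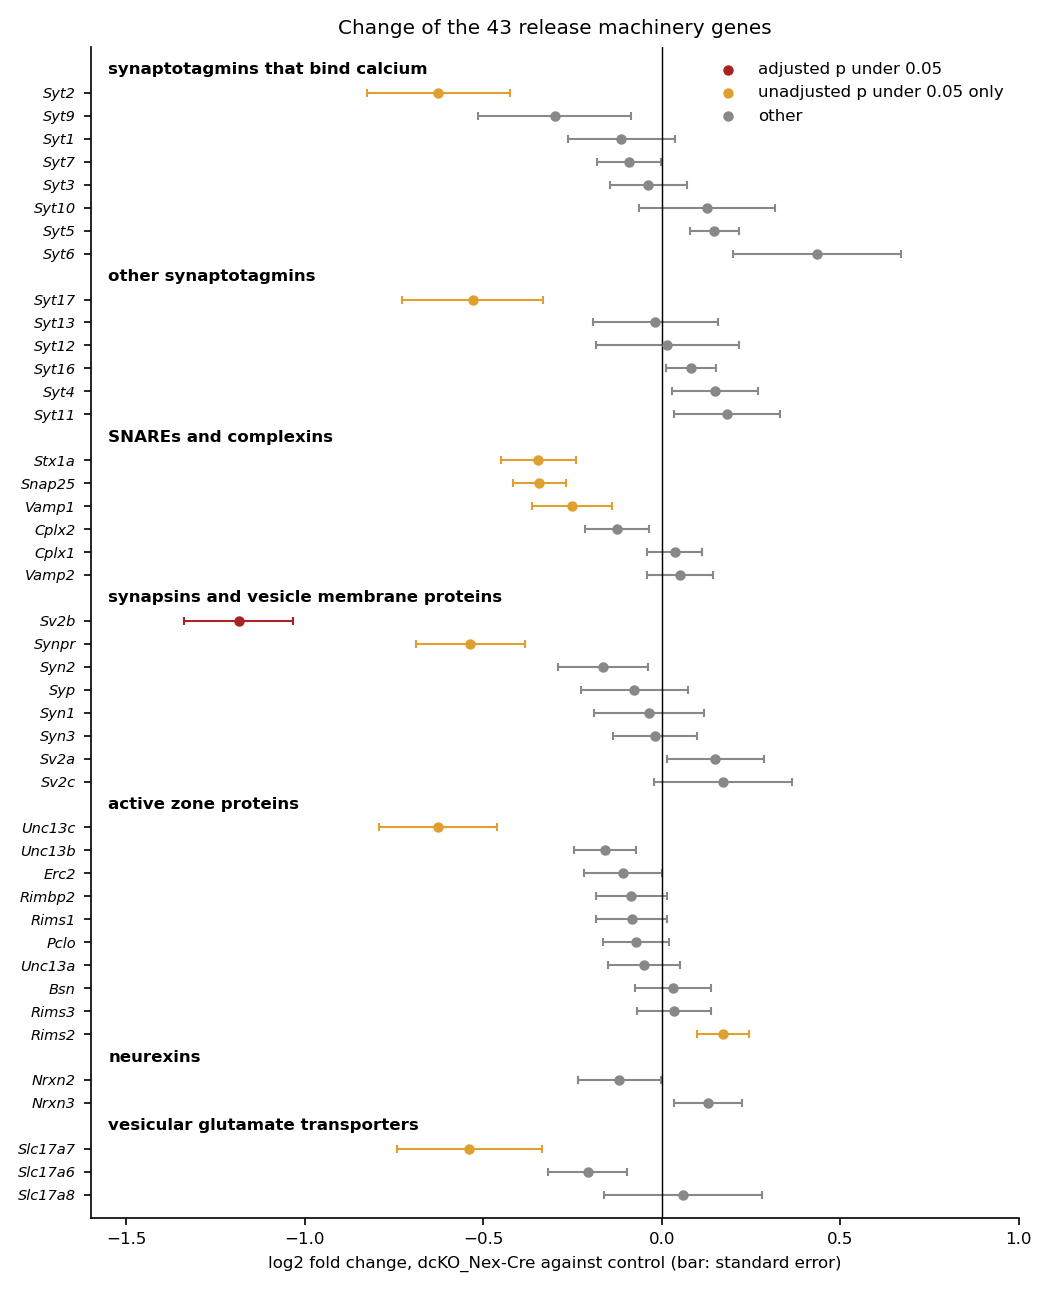
Log2FC of each of the 43 genes (x axis, dcKO_Nex-Cre against control, bars are standard errors from edgeR) by role, coloured by adjusted and unadjusted p. *Sv2b*, at -1.18, lies apart from the other genes, which range from -0.63 to 0.44.

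The count of calls depended on the libraries and on the test. Without dcKO_Nex-Cre replicate 4, 2 of the 43 genes fell at an adjusted p under 0.05, *Sv2b* and *Snap25*, and 0 rose, where the background was 3.74% of all genes lower and 3.98% higher. Without control replicate 2 and dcKO_Nex-Cre replicate 4 together, a choice made after seeing the data, *Sv2b* and *Snap25* fell and 0 rose, against 5.50% lower and 5.49% higher. In that fit 8 genes were lower and 4 were higher at an unadjusted p under 0.05, against 13.5% and 14.9% of all genes, and the median of the 43 was -0.02. The 4 higher genes were *Syt11*, *Sv2a*, *Nrxn3* and *Rims2*. The Wald test of DESeq2 on all 8 libraries called 4 genes lower, *Sv2b*, *Snap25*, *Unc13c* and *Synpr*, and 0 higher, against 1.66% and 1.31%.

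To compare levels between genes, CPM was divided by exon length, the joined length of the exons of all annotated transcripts of a gene. Not all of these transcripts need be present, so the order of genes depends on this choice. By CPM alone, *Cplx2* at 537 CPM lay above *Vamp2* at 426 CPM in the control. The highest level in the control cortex was that of *Vamp2*, the main vesicle SNARE of forebrain neurons, at 112 CPM per kb (range 107 to 117 over the 4 libraries). It was followed by *Cplx2*, a complexin, at 109 CPM per kb (97.3 to 119) and by *Syt4*, a synaptotagmin that does not act as a calcium sensor for fast release, at 102 CPM per kb (89.4 to 108), and the ranges of these genes overlapped. *Syt11* stood next at 70.7 CPM per kb, followed by *Cplx1* at 57.9, *Syt5* at 54.0, *Stx1a* at 52.7 and *Snap25* at 51.4 CPM per kb. Over the control libraries the range of *Stx1a*, 47.6 to 59.5 CPM per kb, overlapped those of the other 4 genes, the range of *Cplx1* lay within that of *Syt11*, and the ranges of *Syt5* and *Snap25* overlapped. *Syt12* had the lowest level, 0.243 CPM per kb, with *Syt2* at 0.314, *Slc17a8* at 0.451, *Syt10* at 1.11 and *Vamp1* at 1.15 CPM per kb. Between the highest and the lowest gene the scale thus covers more than 2 orders of magnitude, and the median of the 43 genes was 9.97 CPM per kb. In the dcKO_Nex-Cre cortex *Vamp2* was again highest, at 116 CPM per kb, and *Syt2* was lowest, at 0.202 CPM per kb. Ranges overlapped here too, for *Vamp2* (103 to 135 CPM per kb) with *Syt4* (92.3 to 132.5 CPM per kb). Those of *Syt2* (0.162 to 0.236 CPM per kb) and *Syt12* (0.221 to 0.277 CPM per kb) also overlapped.

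**Figure D2:**
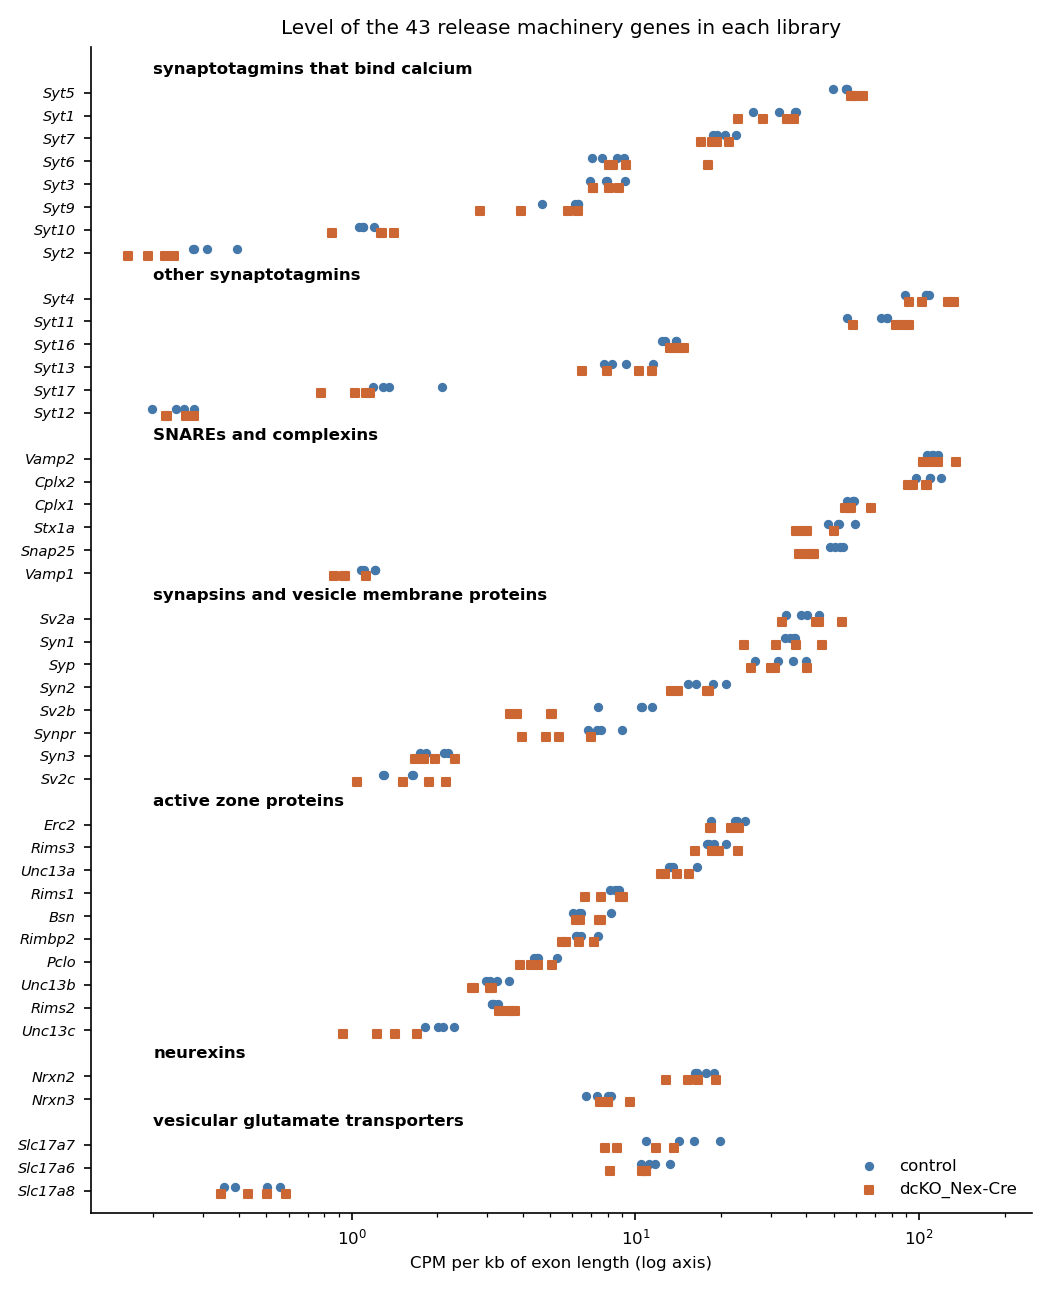
CPM per kb of exon length (x axis, log scale) of each gene in the 4 control (blue circles) and 4 dcKO_Nex-Cre libraries (orange squares), ordered within each role by the control mean. Differences between genes span from 0.243 to 112 CPM per kb in the control, while the groups overlap in most genes and lie apart in *Sv2b*, *Snap25*, *Unc13c*, *Syt2*, *Syt17*, *Syt5* and *Rims2*.

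Among the 8 synapsins and vesicle membrane proteins, 1 gene fell at an adjusted p under 0.05 and 1 more was lower at an unadjusted p only. Of all genes tested, 0.510% fell at the adjusted threshold and 7.05% were lower at the unadjusted one. *Sv2b* (ENSMUSG00000053025, chromosome 7 of GRCm38, 75114894 to 75309262, minus strand) codes for an SV2 protein, a glycoprotein of the vesicle membrane. It was measured at 88.0, 61.7, 88.6 and 95.8 CPM in control replicates 1 to 4 and at 42.1, 30.3, 42.5 and 32.0 CPM in dcKO_Nex-Cre replicates 1 to 4. The groups did not overlap, although control replicate 2 lay well below the other controls. The mean fell from 83.5 ± 14.99 to 36.7 ± 6.48 CPM (SD, n = 4 each), to 44.0% of the control level. The log2FC was -1.18 (SE 0.15, adjusted p = 0.00828 with edgeR). The call held in each of the 8 fits that leave out 1 library, with log2FC values of -1.30 to -1.10 and adjusted p-values of 0.00296 to 0.0416, and within lane tag 2 (log2FC -1.20, adjusted p = 0.0357). A transcript on the opposite strand, *1500012K07Rik*, shares 47 exonic bases with *Sv2b* and had 0.9 counts per library on average.

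The window around the start of *Sv2b* is printed here, since it is the gene that fell, with those of *Sv2a*, its paralogue of the same vesicle family, and of *Unc13c*, a gene whose groups also lay apart. RefSeq (GRCm38.p6) lists 4 windows for *Sv2b*, of which 1 is shown, and 1 each for the other two. Each holds 250 bases before and 50 bases from the start, read 5′ to 3′ on the strand of the gene. Capitals mark matches on either strand to the TATA box TATAAA or the GC box GGGCGG, which do not overlap each other here. *Sv2b* lies at chr7:75309213-75309512 on the minus strand, *Sv2a* at chr3:96180977-96181276 on the plus strand and *Unc13c* at chr9:73968988-73969287 on the minus strand.
Sv2b: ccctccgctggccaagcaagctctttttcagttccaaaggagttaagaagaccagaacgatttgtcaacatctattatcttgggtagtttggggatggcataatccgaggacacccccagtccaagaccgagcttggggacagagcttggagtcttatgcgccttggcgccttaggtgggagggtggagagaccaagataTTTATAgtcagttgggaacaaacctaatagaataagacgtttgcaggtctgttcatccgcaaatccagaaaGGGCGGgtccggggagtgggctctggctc
Sv2a: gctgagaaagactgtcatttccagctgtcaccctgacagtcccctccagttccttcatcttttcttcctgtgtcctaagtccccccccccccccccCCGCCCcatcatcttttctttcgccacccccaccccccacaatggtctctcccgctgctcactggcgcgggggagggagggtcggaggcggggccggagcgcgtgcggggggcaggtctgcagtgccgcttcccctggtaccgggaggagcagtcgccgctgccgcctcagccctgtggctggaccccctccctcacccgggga
Unc13c: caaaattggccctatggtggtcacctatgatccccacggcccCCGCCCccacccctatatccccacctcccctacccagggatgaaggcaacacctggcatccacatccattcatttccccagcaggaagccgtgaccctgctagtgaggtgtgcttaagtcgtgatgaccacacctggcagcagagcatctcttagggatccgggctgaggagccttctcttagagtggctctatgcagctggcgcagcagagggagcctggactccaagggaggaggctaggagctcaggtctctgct

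In the *Sv2b* window the TATA box letters were found on the opposite strand, beginning 50 bases before the start, and the GC box 21 bases after it. *Sv2a* had a GC box match 154 bases before its start and *Unc13c* had one 208 bases before, each on the opposite strand. TATAAA was found in 13.6% of the 32851 mouse windows in the RefSeq table and GGGCGG in 35.7%. These matches describe letters in the windows and were not tested for binding.

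*Sv2a*, the paralogue with the highest level among the vesicle membrane proteins, was measured at 186, 158, 178 and 206 CPM in control replicates 1 to 4 and at 249, 206, 201 and 152 CPM in dcKO_Nex-Cre replicates 1 to 4. The groups overlapped, with the lowest dcKO_Nex-Cre value in replicate 4, 1 of the libraries that stood apart. Its log2FC was 0.15 (SE 0.14, adjusted p = 0.64) and was 0.20 without both of those libraries (adjusted p = 0.141). *Sv2c*, the third SV2 gene, averaged 14.2 ± 1.92 CPM in the control and 15.9 ± 4.63 CPM in the dcKO_Nex-Cre cortex (SD, n = 4 each; adjusted p = 0.714).

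*Synpr* (chromosome 14, 13284780 to 13616340) codes for synaptoporin, a vesicle protein related to synaptophysin. Its values were 71.1, 84.9, 64.3 and 69.2 CPM in the control and 37.4, 65.8, 50.6 and 45.8 CPM in the dcKO_Nex-Cre cortex. Here dcKO_Nex-Cre replicate 2 reached just into the control range and the others lay below it. The log2FC was -0.54 (SE 0.15, unadjusted p = 0.00486, adjusted p = 0.156 with edgeR), and the adjusted p was 0.0388 with DESeq2 and 0.0539 to 0.363 over the 8 fits that leave out 1 library. Without both libraries that stood apart, the log2FC of *Synpr* was -0.41 (unadjusted p = 0.0981, adjusted p = 0.265 with edgeR). The synaptophysin gene *Syp* stood at 175 ± 30.2 and 166 ± 32.4 CPM (SD, n = 4 each), with an adjusted p of 0.847. The synapsins, which coat vesicles and hold them in reserve, had log2FC values of -0.04 for *Syn1*, -0.17 for *Syn2* and -0.02 for *Syn3*, with adjusted p-values of 0.937, 0.573 and 0.955. *Syn3* shares 1733 exonic bases with *Timp3* on the opposite strand and *Syn2* shares 90 with *Timp4*, and the library kit does not mark strand, so part of their counts could come from these genes.

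Of the 6 SNARE and complexin genes, 3 were lower at an unadjusted p under 0.05 and 0 passed the adjusted threshold. The share of all genes lower at the unadjusted threshold was 7.05%. *Snap25* (chromosome 2, 136713453 to 136782428) codes for the plasma membrane SNARE that pairs with syntaxin. It was measured at 357, 329, 344 and 366 CPM in control replicates 1 to 4 and at 282, 256, 272 and 290.4 CPM in dcKO_Nex-Cre replicates 1 to 4. Each dcKO_Nex-Cre library lay below each control library, and the spread within a group was small. The mean went from 349 ± 16.4 to 275 ± 14.7 CPM (SD, n = 4 each), 78.9% of the control. With all libraries the log2FC of -0.34 (SE 0.07, unadjusted p = 0.000756) had an adjusted p of 0.0635. It passed without dcKO_Nex-Cre replicate 4 (adjusted p = 0.0173), without both libraries that stood apart (adjusted p = 0.00495) and with DESeq2 (adjusted p = 0.001). It did not pass in the other 7 fits that leave out 1 library (adjusted p-values of 0.0738 to 0.247), within lane tag 2 (adjusted p = 0.0704) or without a filter (adjusted p = 0.117).

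*Stx1a* (chromosome 5, 135023482 to 135051100) codes for syntaxin 1A, the partner of SNAP-25 in the plasma membrane. Its values were 138, 127, 139 and 159 CPM in the control against 134, 98.1, 107 and 104 CPM in the dcKO_Nex-Cre cortex. Only dcKO_Nex-Cre replicate 1 reached the control range. The log2FC was -0.35 (SE 0.11, unadjusted p = 0.00733, adjusted p = 0.185).

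The vesicle SNAREs *Vamp1* and *Vamp2* stood at the bottom and the top of this group in level per length. *Vamp1* was at 10.99, 12.3, 11.2 and 12.3 CPM in the control and 9.54, 8.78, 9.66 and 11.4 CPM in the dcKO_Nex-Cre cortex, with 1 dcKO_Nex-Cre library inside the control range. It had a log2FC of -0.25 (SE 0.11, unadjusted p = 0.047, adjusted p = 0.359). For *Vamp2* the values were 406, 428, 424 and 445 CPM in the control and 514, 413, 443 and 393 CPM in the dcKO_Nex-Cre cortex, where the highest and the lowest of all 8 libraries were found. Its log2FC was 0.05 (SE 0.09, adjusted p = 0.833).

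*Cplx1* and *Cplx2*, which code for the major forebrain complexins, overlapped between the groups. *Cplx1* was at 129, 122, 128 and 128 CPM in the control and 148, 125, 126 and 120.3 CPM in the dcKO_Nex-Cre cortex (log2FC 0.04, SE 0.08, adjusted p = 0.859). *Cplx2* was at 540.4, 480, 588 and 538 CPM in the control and 526, 452, 523 and 467 CPM in the dcKO_Nex-Cre cortex. Its log2FC was -0.12 (SE 0.09, adjusted p = 0.549).

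**Figure D3:**
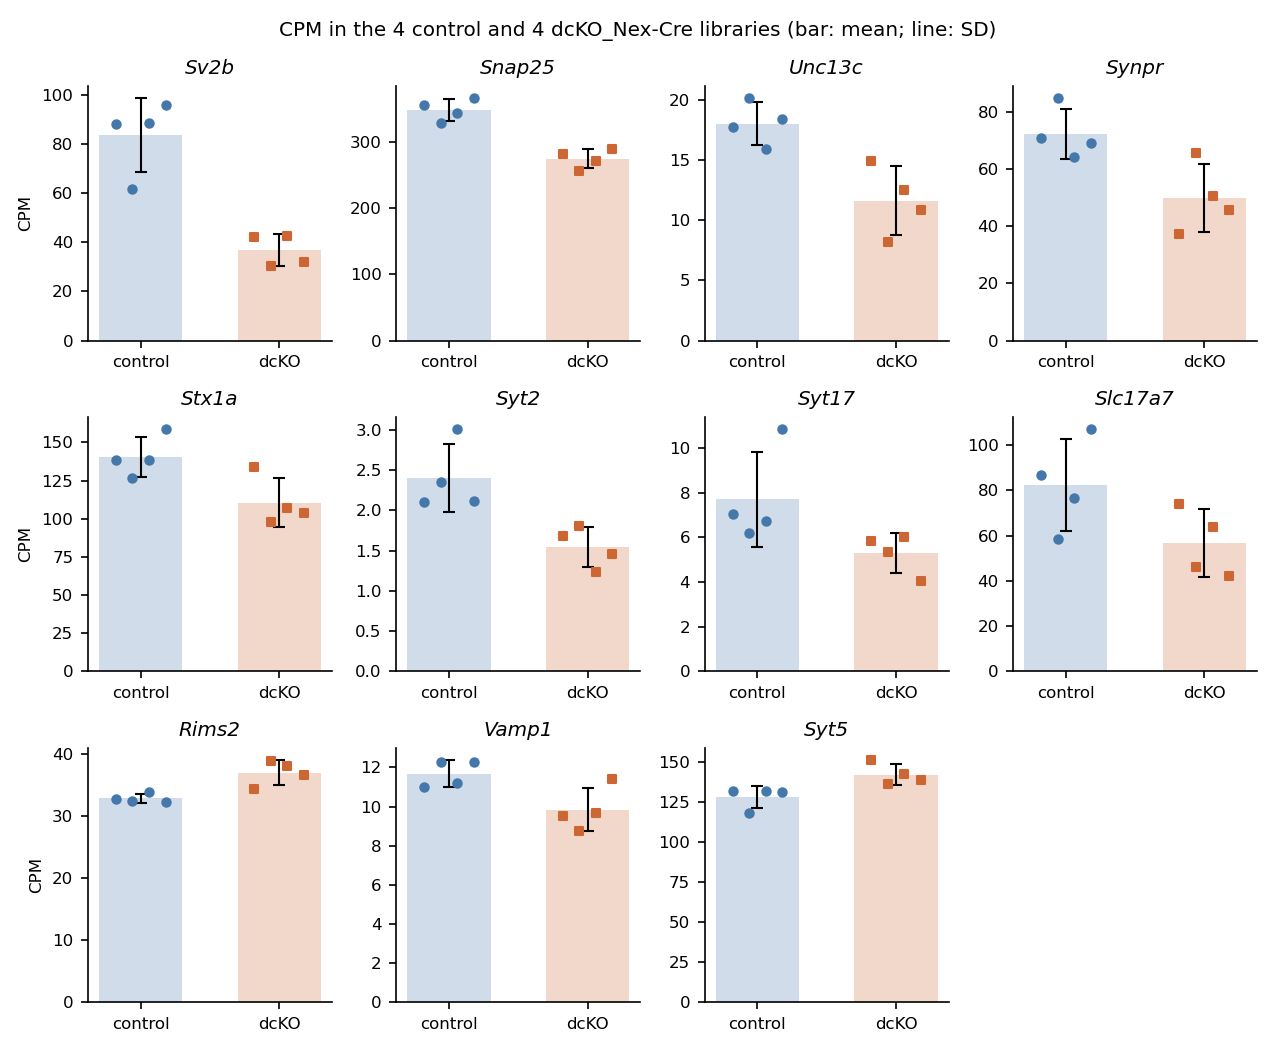
CPM (y axes from 0) in the 4 control and 4 dcKO_Nex-Cre libraries (x axis, dcKO) for the 11 genes with an unadjusted p under 0.05 or groups that do not overlap, with points for libraries, bars for means and lines for SD. *Sv2b* has the lowest share of the control mean, 44.0%, and *Synpr*, *Stx1a*, *Slc17a7* and *Vamp1* show groups that overlap.

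The 8 synaptotagmins that bind calcium and the 6 that do not, or for which this is less clear, included no gene past the adjusted threshold, and 1 gene of each was lower at an unadjusted p under 0.05. Among all genes tested, 7.05% were lower at the unadjusted threshold. *Syt2* (chromosome 1, 134646677 to 134762593), a fast calcium sensor best known from hindbrain and inhibitory synapses, was at 2.11, 2.35, 3.004 and 2.11 CPM in the control and 1.68, 1.80, 1.24 and 1.46 CPM in the dcKO_Nex-Cre cortex. These groups lay apart at a low level, with 46.2 counts per library on average. Its log2FC was -0.63 (SE 0.20, unadjusted p = 0.00978, adjusted p = 0.207). *Syt17* (chromosome 7, 118380717 to 118448222), a synaptotagmin without a transmembrane segment, was at 7.05, 6.19, 6.72 and 10.8 CPM in the control and 5.86, 5.33, 6.03 and 4.04 CPM in the dcKO_Nex-Cre cortex. The gap between the groups was narrow, and control replicate 4 was far above the rest. It had a log2FC of -0.53 (SE 0.20, unadjusted p = 0.0213, adjusted p = 0.276), which was -0.32 (adjusted p = 0.55) without control replicate 4.

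*Syt5* (chromosome 7, 4539765 to 4547541) had the highest level per kb of exon among the calcium-binding synaptotagmins. In CPM it was measured at 132, 118, 132 and 132 CPM in control replicates 1 to 4 and at 151, 136, 143 and 139 CPM in dcKO_Nex-Cre replicates 1 to 4. Every dcKO_Nex-Cre library lay above every control library, by a small margin. The log2FC was 0.15 (SE 0.07, unadjusted p = 0.0563, adjusted p = 0.38). *Syt1*, the main sensor of fast release in forebrain neurons, was at 274 ± 42.2 and 254 ± 49.5 CPM (SD, n = 4 each; adjusted p = 0.76).

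*Syt4*, the highest of the other synaptotagmins, was at 412, 348, 411 and 422 CPM in the control and 516, 359, 399 and 494 CPM in the dcKO_Nex-Cre cortex, so that the groups overlapped (log2FC 0.15, SE 0.12, adjusted p = 0.599). *Syt11* had a log2FC of 0.18 with an adjusted p of 0.597. Its lowest value of each group was in the libraries that stood apart, 291 CPM in control replicate 2 and 303 CPM in dcKO_Nex-Cre replicate 4, and without both the log2FC was 0.22 (unadjusted p = 0.0063, adjusted p = 0.054). *Syt6* showed the largest positive fold change of the 43, 0.44 (SE 0.24, adjusted p = 0.44), and it rested on dcKO_Nex-Cre replicate 2 with 105 CPM, against 47.1 to 53.8 CPM in its group otherwise and 40.9 to 52.9 CPM in the control. Summed markers of the striatum were also highest in that library, 272 CPM against 97.3 to 147 CPM in the other 7, and their part in the value of *Syt6* was not tested. Over the 8 fits that leave out 1 library, the log2FC of *Syt6* ranged from 0.08 to 0.56.

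The 10 active zone genes held 1 gene lower and 1 gene higher at an unadjusted p under 0.05, where 7.05% and 6.59% of all genes were. *Unc13c* (chromosome 9, 73479422 to 73968966) codes for Munc13-3, a vesicle priming protein. It was measured at 17.7, 20.1, 15.9 and 18.4 CPM in control replicates 1 to 4 and at 14.96, 8.20, 12.5 and 10.8 CPM in dcKO_Nex-Cre replicates 1 to 4. All dcKO_Nex-Cre libraries lay below the controls, the nearest by less than 1 CPM. The log2FC was -0.63 (SE 0.16, unadjusted p = 0.00281, adjusted p = 0.126 with edgeR), and the adjusted p was 0.0188 with DESeq2, 0.033 without a filter and 0.0622 to 0.305 over the 8 fits that leave out 1 library. *Unc13c* also did not pass with edgeR without both libraries that stood apart (adjusted p = 0.105). The same held within lane tag 2 (adjusted p = 0.133) and with replicate number as a block (adjusted p = 0.203). Its paralogues *Unc13a* and *Unc13b*, which code for Munc13-1 and Munc13-2, had log2FC values of -0.05 and -0.16 with adjusted p-values of 0.852 and 0.439. *Unc13a* shares 495 exonic bases with *Colgalt1* on the opposite strand.

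*Rims2* (chromosome 15, 39198261 to 39684372) codes for a RIM scaffold that links vesicles, Munc13 and calcium channels. It was at 32.9, 32.4, 34.0 and 32.3 CPM in the control and 34.4, 39.0, 38.2 and 36.7 CPM in the dcKO_Nex-Cre cortex. The groups lay apart, with little spread among the controls. Its log2FC was 0.17 (SE 0.07, unadjusted p = 0.0367, adjusted p = 0.331). *Rims1* was at 64.7, 63.4, 59.9 and 62.4 CPM in the control and 66.8, 55.5, 65.0 and 48.7 CPM in the dcKO_Nex-Cre cortex, with dcKO_Nex-Cre libraries both above and below the control range. For *Rims1* the log2FC was -0.08 (SE 0.10, adjusted p = 0.732).

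*Erc2*, a scaffold with the highest level per length among the active zone genes, was at 223, 179.6, 236 and 218 CPM in the control and 226, 179, 212 and 178 CPM in the dcKO_Nex-Cre cortex. Its lowest values were again in control replicate 2 and dcKO_Nex-Cre replicates 2 and 4 (log2FC -0.11, SE 0.11, adjusted p = 0.678). The giant scaffolds *Bsn* and *Pclo* had log2FC values of 0.03 and -0.07, *Rims3* of 0.035 and *Rimbp2*, which binds RIMs and calcium channels, of -0.09, with adjusted p-values of 0.724 to 0.917.

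Neurexins are presynaptic adhesion receptors that organise the release site. *Nrxn2* was at 262, 224, 228 and 245 CPM in the control and 266, 211, 229.5 and 177 CPM in the dcKO_Nex-Cre cortex, with overlapping groups (log2FC -0.12, SE 0.12, adjusted p = 0.671). *Nrxn3* averaged 95.3 ± 8.84 CPM in the control and 104 ± 11.4 CPM in the dcKO_Nex-Cre cortex (SD, n = 4 each; log2FC 0.13, adjusted p = 0.553).

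The vesicular glutamate transporters load glutamate into vesicles, and *Slc17a7*, *Slc17a6* and *Slc17a8* code for VGLUT1, VGLUT2 and VGLUT3. *Slc17a7* (chromosome 7, 45163949 to 45176142) was at 86.8, 58.7, 76.6 and 107 CPM in control replicates 1 to 4 and at 74.0, 46.3, 63.8 and 42.0 CPM in dcKO_Nex-Cre replicates 1 to 4. The groups overlapped, and the lowest library of each group was 1 of those that stood apart. The log2FC was -0.54 (SE 0.20, unadjusted p = 0.0222, adjusted p = 0.28), and it was -0.55 without both libraries (adjusted p = 0.163). *Slc17a6* was at 63.4, 60.2, 56.6 and 71.6 CPM in the control and 58.8, 43.8, 56.9 and 58.7 CPM in the dcKO_Nex-Cre cortex, again with overlap. Its log2FC was -0.21 (SE 0.11, adjusted p = 0.42). Per length, *Slc17a7* and *Slc17a6* stood at 15.3 and 11.7 CPM per kb in the control and at 10.5 and 10.1 CPM per kb in the dcKO_Nex-Cre cortex, with overlapping ranges in each group, and *Slc17a8* at 0.451 and 0.466 CPM per kb.

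In the pattern by library, the 2 libraries that stood apart were low in many of these genes. Within their groups, 14 of the 43 genes had their lowest value both in control replicate 2 and in dcKO_Nex-Cre replicate 4, among them *Syt1*, *Syn1*, *Syn2*, *Syp*, *Sv2a*, *Nrxn2* and *Slc17a7*, and 1 gene, *Bsn*, had its highest value in both. Each of the 2 libraries was lowest of its group in 23 genes. The same counts were not made over all genes, so they cannot be read as a trait of these 43 genes. The part of the mitochondrial share of these libraries in these values was not tested. Lane tags in the file names put all 4 controls and dcKO_Nex-Cre replicates 1 and 2 on lane tag 2, and the other 2 dcKO_Nex-Cre libraries on lane tag 8. Within lane tag 2, 1 of the 43 genes, *Sv2b*, fell at an adjusted p under 0.05 and 0 rose, against 0.643% and 0.834% of all genes. At an unadjusted p under 0.05, 4 genes were lower and 3 were higher there, where 11.8% and 11.7% of all genes were, and the median log2FC of the 43 was 0.0008.

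**Figure D4:**
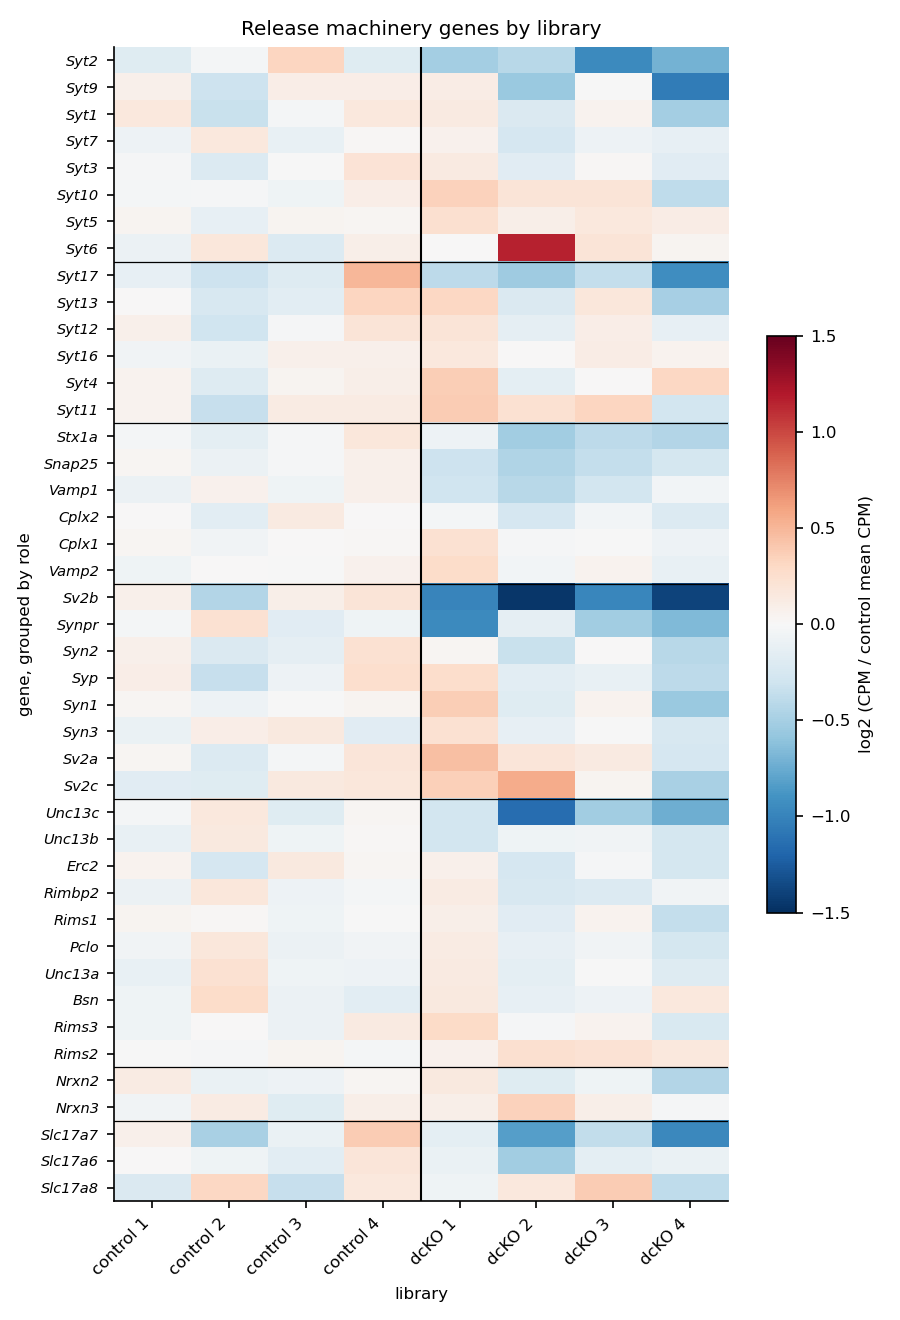
Log2 of CPM over the control mean (colour) for each of the 43 genes (rows, by role) in each library (columns, control left and dcKO_Nex-Cre right of the line). *Sv2b* is below the control mean in all 4 dcKO_Nex-Cre libraries, *Syt6* stands out in dcKO_Nex-Cre replicate 2, and control replicate 2 and dcKO_Nex-Cre replicate 4 are low in many rows.

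Count ratios of paralogues within a library do not depend on normalization between libraries. The *Sv2b*/*Sv2a* ratio was 0.472, 0.391, 0.497 and 0.464 in the control and 0.169, 0.147, 0.212 and 0.210 in the dcKO_Nex-Cre cortex, a difference of -1.32 on the log2 scale. The *Unc13c*/*Unc13a* ratio was 0.107, 0.0968, 0.0931 and 0.109 in the control and 0.0765, 0.0511, 0.0708 and 0.0695 in the dcKO_Nex-Cre cortex, a difference of -0.61. In both pairs the groups lay apart, and the differences were -1.46 and -0.66 without the 2 libraries that stood apart. These pairs, and *Syt2*/*Syt1* with a difference of -0.51 and overlapping groups, were chosen after the values of the genes were seen and were given no test. Of the 4 other pairs, the log2 ratio differed by -0.16 for *Cplx2*/*Cplx1* (two-sided exact permutation p = 0.0571, 0.171 adjusted over the 4 pairs) and by 0.27 for *Rims2*/*Rims1* (exact permutation p = 0.0857, adjusted 0.171). *Vamp1*/*Vamp2* differed by -0.30 and *Slc17a7*/*Slc17a6* by -0.33 (exact permutation p = 0.143 and 0.2, adjusted 0.19 and 0.2). The smallest p that 4 against 4 allows is 0.0286, over 70 regroupings.

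**Figure D5:**
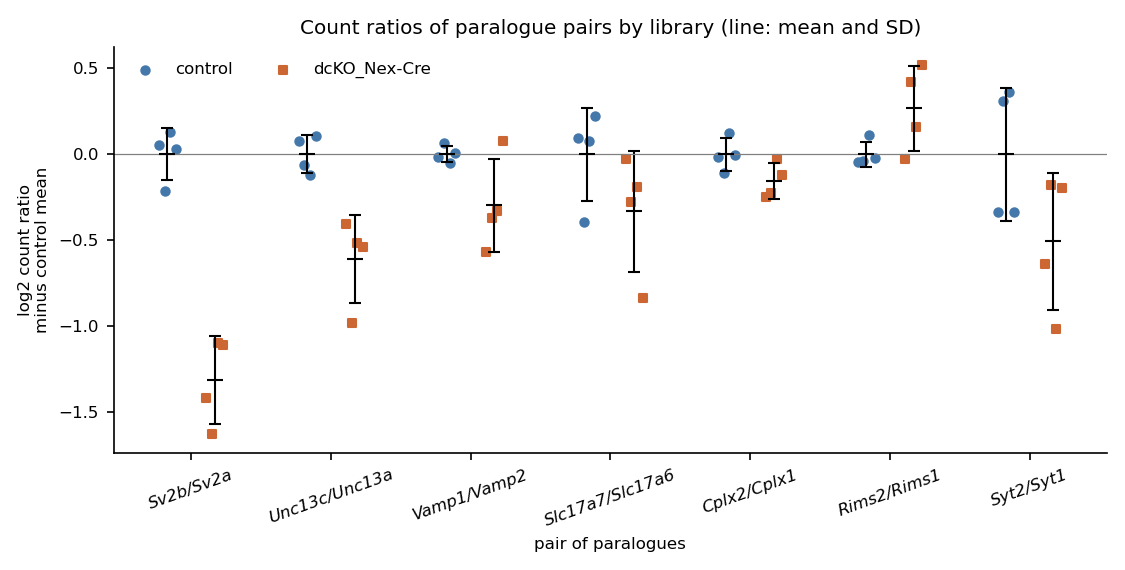
Log2 count ratio of 7 pairs of paralogues minus the control mean (y axis) in each control (blue circles) and dcKO_Nex-Cre (orange squares) library, with mean and SD. The *Sv2b*/*Sv2a* and *Unc13c*/*Unc13a* ratios lie apart between the groups, and the other 5 overlap.

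Around these 43 genes, 120 other genes of vesicle release and recycling were listed by hand in 6 groups, of which 119 were found and 110 were tested. At an adjusted p under 0.05, 2 fell and 2 rose, and at an unadjusted p under 0.05, 11 (10%) were lower and 2 (1.82%) were higher. Over all genes these shares were 0.510% and 0.375% at the adjusted and 7.05% and 6.59% at the unadjusted threshold, as given above. *Sytl2*, a Rab27 effector, fell from 7.57 ± 0.566 to 4.27 ± 0.519 CPM (SD, n = 4 each; log2FC -0.82, SE 0.14, adjusted p = 0.0212).

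*Cplx3*, a complexin known from retinal ribbon synapses and from subplate neurons, rose. It was at 2.01, 0.931, 1.25 and 2.16 CPM in the control and 4.14, 4.83, 6.07 and 5.95 CPM in the dcKO_Nex-Cre cortex. The groups lay well apart (log2FC 1.70, SE 0.25, adjusted p = 0.0162). *Rph3a*, the gene of the Rab3 effector rabphilin, also rose, from 131, 146, 124 and 138 CPM to 199.5, 186, 188 and 178 CPM (log2FC 0.48, SE 0.08, adjusted p = 0.0192). Over the 8 fits that leave out 1 library, the call held in 5 for *Cplx3*, in 3 for *Rph3a* and in 1 for *Sytl2*.

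By unadjusted p, the next 6 genes of these groups were *Rab3b* (log2FC -0.44, adjusted p = 0.0596), the vesicular zinc transporter gene *Slc30a3* (-1.41, 0.0755), *Syt15* (-0.89, 0.114), *Stxbp6* (-0.46, 0.125), *Baiap3* (-1.34, 0.184) and *Ppfia4* (-0.37, 0.187). All 6 were lower, the first 4 with groups that did not overlap. Since these genes were picked by p, groups that lie apart are partly built into the choice. Among the 110 tested genes of these groups, 9 were apart and lower and 4 were apart and higher. Over all genes these shares were 4.01% and 3.99%. *Slc30a3* and *Syt15* had few counts, with lowest values of 12 and 9 counts in a library, which limits the precision of their fold changes. Of the 27 genes of vesicle endocytosis, 0 had an unadjusted p under 0.05 with edgeR, and their log2FC values lay between -0.13 and 0.23. The 15 tested genes of transmitter loading and the proton pump had a median log2FC of 0.0081, with 2 lower and 0 higher at an unadjusted p under 0.05. For both of these lists, the shares over all genes at this threshold were 7.05% lower and 6.59% higher.

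Markers of 13 cell types and tissues were summed in each library, and the groups overlapped in all 13. The 9 markers of cortical projection neurons, the cells in which Nex-Cre acts, summed to 1646 to 1964 CPM in the control and 1506 to 1683 CPM in the dcKO_Nex-Cre cortex (two-sided exact permutation p = 0.0571, the smallest of the 13), *Neurod6* included. Without *Neurod6*, the other 8 summed to 1062 to 1214 CPM in the control and 1089 to 1272 CPM in the dcKO_Nex-Cre cortex (exact permutation p = 0.8). Of the 9, 1 fell at an adjusted p under 0.05, *Neurod6*, and their median log2FC was -0.02. At an unadjusted p under 0.05 with edgeR, 2 were lower, *Neurod6* and *Fezf2* (log2FC -0.55, adjusted p = 0.149). In the same fit 1 was higher, *Neurod1* (log2FC 0.36, adjusted p = 0.21), so a sum can hide differences of single genes. The 10 pan-neuronal markers summed to 9468 to 10557 and 9136 to 10999 CPM, and the 10 interneuron markers to 806 to 949 and 708 to 860.3 CPM. Markers of oligodendrocyte precursors summed to 187 to 277 CPM in controls and 271 to 339 CPM in dcKO_Nex-Cre samples. At an adjusted p under 0.05, 1 of their 6 genes rose, as did 1 of 8 microglial and 1 of 8 striatal genes. Over all genes 0.510% fell and 0.375% rose at this threshold. At an unadjusted p under 0.05, 4, 3 and 1 genes of these 3 lists were higher and 0, 1 and 0 were lower. Over all genes 6.59% were higher and 7.05% were lower at the unadjusted threshold. No marker was at 0 in all libraries. The part of these markers in the values of the release genes was not tested.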

How the data were processed

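RNA of whole P1 cortex, isolated with TRIZOL and prepared with the Illumina TruSeq RNA v2 kit, was sequenced from 4 control and 4 dcKO_Nex-Cre samples. The files deposited by the authors hold, for each library, raw read counts by Ensembl identifier; the build is mm10 per the submitters' processing notes, and the aligner, the counting program and the annotation are not given in the sources used here. The labels name control and mutant, and the paper gives Nex-Cre as the driver. Total counts ranged from 17958641 to 35191912. Names, positions and exon lengths came from GENCODE M21 on GRCm38, and 48349 of 48709 identifiers matched. No library was a copy of another of its group, the smallest chi-square per degree of freedom being 3.77.

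The analysis used edgeR 4.0.16 in R 4.3.3. Its function filterByExpr kept 16287 genes, libraries were normalized by TMM, and the groups were compared by the robust quasi-likelihood test, two-sided, with Benjamini-Hochberg adjustment over all genes tested and a threshold of 0.05. The biological coefficient of variation was 0.143. Standard errors are the log2 fold change divided by the square root of F. Log2 count ratios of paralogues and summed marker CPM were compared by two-sided exact permutation over 70 regroupings. The method was tested on simulated data before use. Alternatives were DESeq2 size factors, the Wald test of DESeq2 1.42.0, a minimum of 10 counts per sample or no filter, a block for replicate number, only the libraries of lane tag 2, each library left out, and, added after seeing the data, leaving out control replicate 2 and dcKO_Nex-Cre replicate 4 together.

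The 43 genes, the other lists and the tests were chosen with earlier results of these data known. Values by library are given for genes with an adjusted or unadjusted p under 0.05 or groups apart, for the highest gene of each of 7 roles, and for 4 pairs of paralogues (*Vamp1*/*Vamp2*, *Cplx1*/*Cplx2*, *Slc17a6*/*Slc17a7*, *Rims1*/*Rims2*). Of the 120 other release genes, those with an adjusted p under 0.05 and the next 6 by unadjusted p are named, except 1 that is counted but not reported here. *Syt6*, *Syt11*, *Nrxn3* and the SV2 and Munc13 paralogues were named after their values were seen. Promoter windows came from RefSeq (GRCm38.p6), which matched 32 of the 43 genes. Figures were drawn in Python 3.11.15 with matplotlib 3.10.9.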

Additional observations from a re-analysis of the deposited data

Results flagged for a closer look

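In each of the 43 genes the 4 control and the 4 dcKO_Nex-Cre libraries were searched for a sample far from the others by Dixon's test. Of 86 groups, 7 were found, where chance gives about 1 in 20, or 4.3. Control replicate 2, a library with a high mitochondrial share, held 5 of them. It was lowest for *Syt5* at 118 CPM (others 132 to 132 CPM), for *Syt9* at 18.7 CPM (others 24.4 to 24.98 CPM) and for *Syt4* at 348 CPM (others 411 to 422 CPM). It was highest for *Unc13a* at 208 CPM (others 166 to 171 CPM) and for *Pclo* at 118.5 CPM (others 99.0 to 101 CPM). The remaining 2 were in dcKO_Nex-Cre replicate 2, which was highest for *Syt6* at 105 CPM (others 47.1 to 53.8 CPM) and lowest for *Slc17a6* at 43.8 CPM (others 56.9 to 58.8 CPM). Summed striatal markers reached 272 CPM in that same library, where the other 7 had 97.3 to 147 CPM. Whether tissue composition or RNA quality has a part in these values was not tested.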

How the results depend on the processing

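*Sv2b* fell at an adjusted p under 0.05 under each alternative run, and *Smarcc2* too. With all libraries 1 of the 43 genes was called. This count was 4 with DESeq2's Wald test, 2 without a filter and 2 without control replicate 2 and dcKO_Nex-Cre replicate 4 together, and it ranged from 1 to 2 when 1 library was left out, with 2 without dcKO_Nex-Cre replicate 4. Over all genes, 0.510% were called lower and 0.375% higher with all libraries. These shares were 1.66% and 1.31% with DESeq2, and 5.50% and 5.49% without both libraries. In either direction, 0.860% were called without a filter and 0.108% to 7.73% with 1 left out, the highest without dcKO_Nex-Cre replicate 4. Genes lower at an unadjusted p under 0.05, 9 with all libraries, were 4 within lane tag 2 and 6 to 9 with 1 library left out. Genes higher, 1 with all libraries, were 2 with DESeq2, 3 within lane tag 2, 4 without both libraries, 0 without a filter and 0 to 5 with 1 library left out, the 5 without dcKO_Nex-Cre replicate 4. Over all genes, the shares lower and higher at this threshold were 7.05% and 6.59% with all libraries, 3.89% and 3.87% with DESeq2 and 4.97% and 4.33% without a filter (both over more genes of low counts), 11.8% and 11.7% within lane tag 2, 13.5% and 14.9% without both libraries, and 4.95% to 13.9% and 4.42% to 14.3% with 1 left out, the highest without dcKO_Nex-Cre replicate 4. Genes whose groups did not overlap, 7 with all libraries, were 12 within lane tag 2, 14 without both libraries and 7 to 10 with 1 left out. Over all genes the share apart was 4.01% lower and 3.99% higher with all libraries, and in either direction 35.3% within lane tag 2, 33.5% without both libraries and 9.69% to 26.9% with 1 left out. The median log2 fold change of the 43, -0.07 with all libraries, was 0.0008 within lane tag 2 and -0.15 (without dcKO_Nex-Cre replicate 1) to 0.0005 (without dcKO_Nex-Cre replicate 4) with 1 left out. The other release genes called, 4 with all libraries, were 7 with DESeq2, 10 without both libraries, and 0 to 8 with 1 left out, 0 without control replicate 1, control replicate 3 or dcKO_Nex-Cre replicate 3. Without both libraries 7 were lower and 3 higher, where 5.50% and 5.49% of all genes were. Without dcKO_Nex-Cre replicate 4, 5 were lower and 3 higher, against 3.74% and 3.98%. With all libraries 110 of these genes were tested. The share of all genes called moved over the same fits, so these counts alone show no gain in release genes. Some of these fits hold fewer samples, and the cause of these shifts was not tested.

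The log2 fold change kept its sign in every fit for 28 of the 43 genes. It changed sign within lane tag 2 for *Pclo* (0.005), *Syn1* (0.124), *Syn3* (0.069), *Syp* (0.075), *Syt13* (0.081) and *Unc13a* (0.0008), and without both libraries for *Pclo* (0.052), *Rims1* (0.0077), *Syn1* (0.083), *Syn3* (0.083), *Syt12* (-0.021), *Syt13* (0.043) and *Unc13a* (0.083). With 1 library left out it ranged across 0 for *Bsn* (-0.018 to 0.14), *Cplx1* (-0.033 to 0.075), *Rims1* (-0.15 to 0.0005), *Rims3* (-0.059 to 0.12), *Slc17a8* (-0.064 to 0.18), *Syn1* (-0.20 to 0.10), *Syn3* (-0.12 to 0.047), *Syp* (-0.21 to 0.020), *Syt1* (-0.21 to 0.0021), *Syt3* (-0.10 to 0.036), *Syt12* (-0.057 to 0.086), *Syt13* (-0.15 to 0.11), *Unc13a* (-0.12 to 0.041) and *Vamp2* (-0.031 to 0.11). None of these genes passed an adjusted p under 0.05 in those fits.

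Samples with the same replicate number did not deviate together (Pearson's r across genes 0.126, 0.018, 0.135 and -0.138). With the replicate number as a block, 54 in place of 144 genes were called, 1 of the 43 genes and 1 of the other release genes among them. In that fit 7 of the 43 were lower at an unadjusted p under 0.05. Over all genes 0.332% were called and 6.55% were lower at the unadjusted threshold in the same fit. *Syt2*, *Syt10*, *Syt12* and *Slc17a8* had 32.5 to 51.8 counts per library on average, which limits their precision.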

Other observations

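The promoter windows of the 43 genes were searched for 5 motifs on both strands, as a description with no test. RefSeq gives windows for 32 of the genes. Any window on chromosome 18, where *Syt4* lies, was left out of the count for these genes, and 45 windows remained. The windows of all genes used for comparison were not limited in this way. The GC box GGGCGG was found in 29 of the 45 windows (64.4%), in 26 genes, against 35.7% of all 32851 windows. The TATA box TATAAA was found in 2 (4.44%), both of *Sv2b*, against 13.6%. The E-box CAGATG, a motif of the NEUROD type, was in 6 windows (13.3%), those of *Pclo*, *Rimbp2*, *Rims3*, *Slc17a6*, *Slc17a8* and *Syn2*, against 17.2%. The cyclic AMP response element TGACGTCA was in 1 window, of *Syn1*, against 1.79% of all, and the left part of the REST site, TTCAGCACC, was in 2 windows, of *Syn1* and *Unc13a*, against 0.371%.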
